A study of Mus musculus with 4 samples.

Results

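The genes described here encode the machinery that copies DNA and the enzymes that supply its building blocks. They are 39 mouse genes chosen by name for their known roles: origin licensing and the replicative helicase (Mcm2 to Mcm7, Cdc6, Cdt1, Gmnn, Mcm10, Gins1, Gins2), the sliding clamp and its loader (Pcna, Rfc1 to Rfc5), primase and polymerases (Pola1, Pola2, Prim1, Prim2, Pold1, Pole), single-strand binding and lagging-strand processing (Rpa1, Rpa2, Fen1, Lig1), deoxynucleotide synthesis (Tyms, Rrm1, Rrm2, Tk1, Dut), chromatin assembly and methylation maintenance (Chaf1a, Chaf1b, Uhrf1), and control of entry into S phase (E2f1, Ccne1, Ccne2). The choice was made with earlier results of these data known, so shares set against all features below are descriptions. On the array the 39 genes had 58 probes on 76 spots, and each gene had at least 1 probe bright enough to be tested. In all, 17847 genes and unnamed probes were tested, and these are called features below.

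The cells were C2C12 myoblasts, an established mouse line whose cells stop dividing and fuse into multinucleate myotubes in low serum. Cells were grown in medium with 10% fetal bovine serum and then differentiated for 6 days in horse serum, at 2% according to the growth protocol but 10% according to the source names. Treated cultures received recombinant human Follistatin 288, a secreted protein that binds and blocks activins and myostatin, at 200 ng/ml every 24 h, and control cultures were left untreated for the same 6 days. Each of 4 two-colour Agilent whole mouse genome arrays carried treated RNA labelled with Cy3 and control RNA labelled with Cy5, and the labels call the 4 arrays biological replicates without naming separate cultures. All 4 arrays had the same dye orientation, so an effect of dye and an effect of follistatin cannot be told apart on any of them.

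DNA replication starts when the licensing factors Cdc6 and Cdt1 load rings of Mcm2 to Mcm7 onto origins in G1, and when kinases and the GINS complex then turn these rings into active helicases in S phase. Many genes of this machinery are switched on together by E2F transcription factors as cells pass from G1 into S phase, and they are turned down when myoblasts withdraw from the cell cycle to differentiate. Cultures of differentiating C2C12 cells also hold undifferentiated cells that did not fuse, and in RNA from a whole culture fewer cells of a type and less RNA per cell cannot be told apart.

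The arrays were not alike, and this touches every value below. Over all features the log2 ratios of replicates 2 and 3 correlated with r = 0.81 (rho = 0.79), while the other 5 pairs of arrays lay between 0.079 and 0.27. Over the 39 replication genes the correlation was 0.83 for replicates 2 and 3 and between -0.14 and 0.44 for the others. These correlations are across genes, which are not independent replicates. Whether replicates 2 and 3 came from separate cultures was not tested, and every value below with n = 4 counts them as 2 samples. With their mean counted as 1 sample, the limma Benjamini-Hochberg adjusted p of Cdc6, the smallest of the group, was 0.312 in place of 0.109, and that of Gins2 was 0.366 in place of 0.122. Replicates 1 to 3 were on 1 slide and replicate 4 was alone on the other, so slide and replicate 4 cannot be told apart. Replicate 4 was also the only array processed with a later version of the extraction software, which cannot be told apart from it either. Between 61.1% and 69.4% of spots were well above background in a channel, and no spot was saturated. Only 4 arrays limit the precision: the median standard error of a replication gene's mean log2 ratio was 0.20. Standard errors here are those of limma, in which a gene's own spread is drawn towards that of all features.

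Across the 4 arrays no replication gene changed by the test used here, and the group stood clearly to one side of the other genes on 1 array only. All values are log2 ratios of processed Cy3 (follistatin) over processed Cy5 (untreated) signal, centred on each array's median, so that 0 is the typical feature of that array. From replicate 1 to replicate 4, the median of the 39 genes was -0.17, 0.037, -0.018 and 0.50. Set against the median of all other features, the shift averaged 0.089 ± 0.29 (SD, n = 4 arrays), which is smaller than its spread between arrays.

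**Figure D1:**
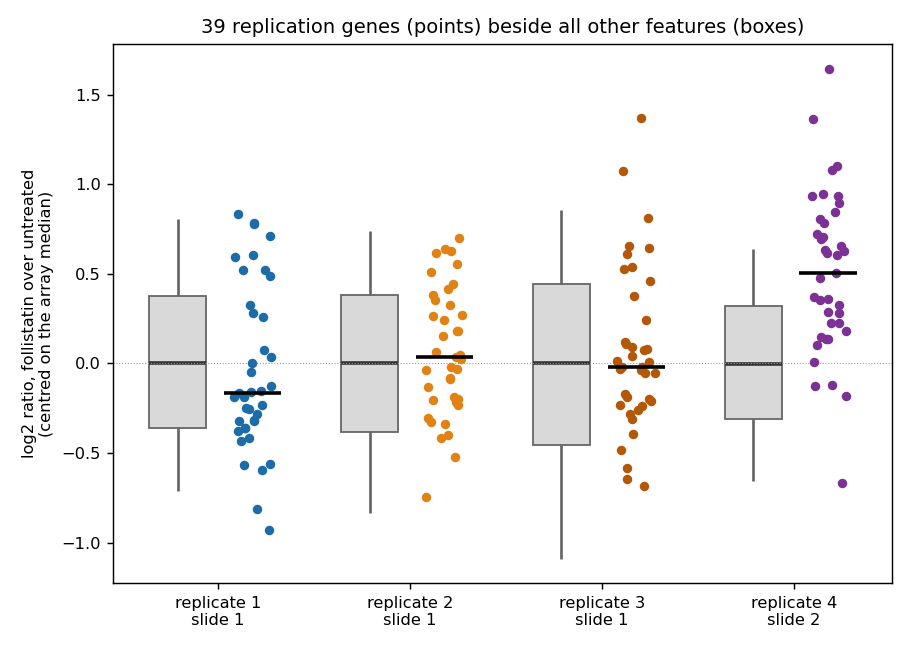
Log2 ratio of follistatin over untreated signal (vertical axis, centred on the array median) for the 39 replication genes (points, with their median as a black bar) beside all other features (boxes from the lower to the upper quartile, lines from the 10th to the 90th percentile) on each array. The replication genes lay around the middle of the other features on replicates 1 to 3, with medians of -0.17, 0.037 and -0.018, and above it on replicate 4, with a median of 0.50.

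Counts by array showed the same pattern. On replicate 1, 15 of the 39 genes lay above the array median (38.5%, against 50% of all features). On replicate 2 it was 21 (53.8%), and on replicate 3 it was 19 (48.7%). On replicate 4 it was 35 (89.7%). The study's fold threshold of 1.6 was passed upwards by 4 replication genes on replicate 1 (10.3%, against 13.1% of all features). Replicate 2 had 1 such gene (2.56%, against 12%), replicate 3 had 3 (7.69%, against 15%), and replicate 4 had 14 (35.9%, against 9.03%). Downwards it was passed by 2 genes on replicate 1 (against 11.1% of features). Replicates 2 and 3 had 1 gene each (against 13.4% and 17.4%), and replicate 4 had none (against 9.36%). On replicate 4 the excess was upwards, and on the other arrays the shares past the threshold were below those of all features in both directions.

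In the limma test across all 17847 features with Benjamini-Hochberg adjustment, 0 of the 39 replication genes passed an adjusted p of 0.05, against 0.0112% of all features. That percentage stands for 2 features, Ces3b and Olfr1299, both lower with follistatin and both too dim in the follistatin channel to be well above background on a single array. The adjusted p of the replication genes ran from 0.109 (Cdc6) to 0.999. At an unadjusted p under 0.05, 7 replication genes were higher (17.9%, against 10.3% of features): Cdc6, Gins2, Rpa1, Fen1, Mcm10, Rfc1 and Pola2. None was lower at that level, against 10.7% of features. The unpaired test named in the study's design text, run on the separate channels of the same arrays, called none of the 39 genes at p under 0.05 with a 1.6-fold change, while 8.40% of all features passed that rule before adjustment.

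Mean ratios were positive for 26 of the 39 genes (66.7%, against 50.6% of features) and negative for 13. Only 2 means, those of Cdc6 and Mcm10, exceeded 1.6-fold upwards (5.13%, against 5.59% of features), and none did downwards (against 8.43%). On all 4 arrays 19 genes stayed within 1.6-fold of the array median (48.7%, against 44.7%). A ratio above 0 on all 4 arrays was seen for 5 genes, Cdc6, Gins2, Rfc1, Rpa1 and Fen1 (12.8%, against 14.4%), and a ratio below 0 on all 4 arrays for none (against 14.9%). Replicate 4 gave the highest ratio for 29 genes (74.4%, against 29.7%), and replicate 1 the lowest for 20 (51.3%, against 28.2%). The reverse order was rarer: 5 genes, Gins2, Rpa1, Rrm2, Chaf1a and E2f1, were highest on replicate 1 (12.8%, against 27%), and 5, Gins2, Pola2, Rpa1, Fen1 and E2f1, were lowest on replicate 4 (12.8%, against 28.1%). Pola2, Fen1 and Dut were the 3 genes highest on replicate 3 (7.69%, against 20.4%). For 12 genes the ratio was negative on replicates 1, 2 and 3 and positive on replicate 4 (30.8%, against 9.76% of features). The range over the 4 arrays exceeded 1.6-fold for 25 genes (64.1%, against 66.4%).

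**Figure D2:**
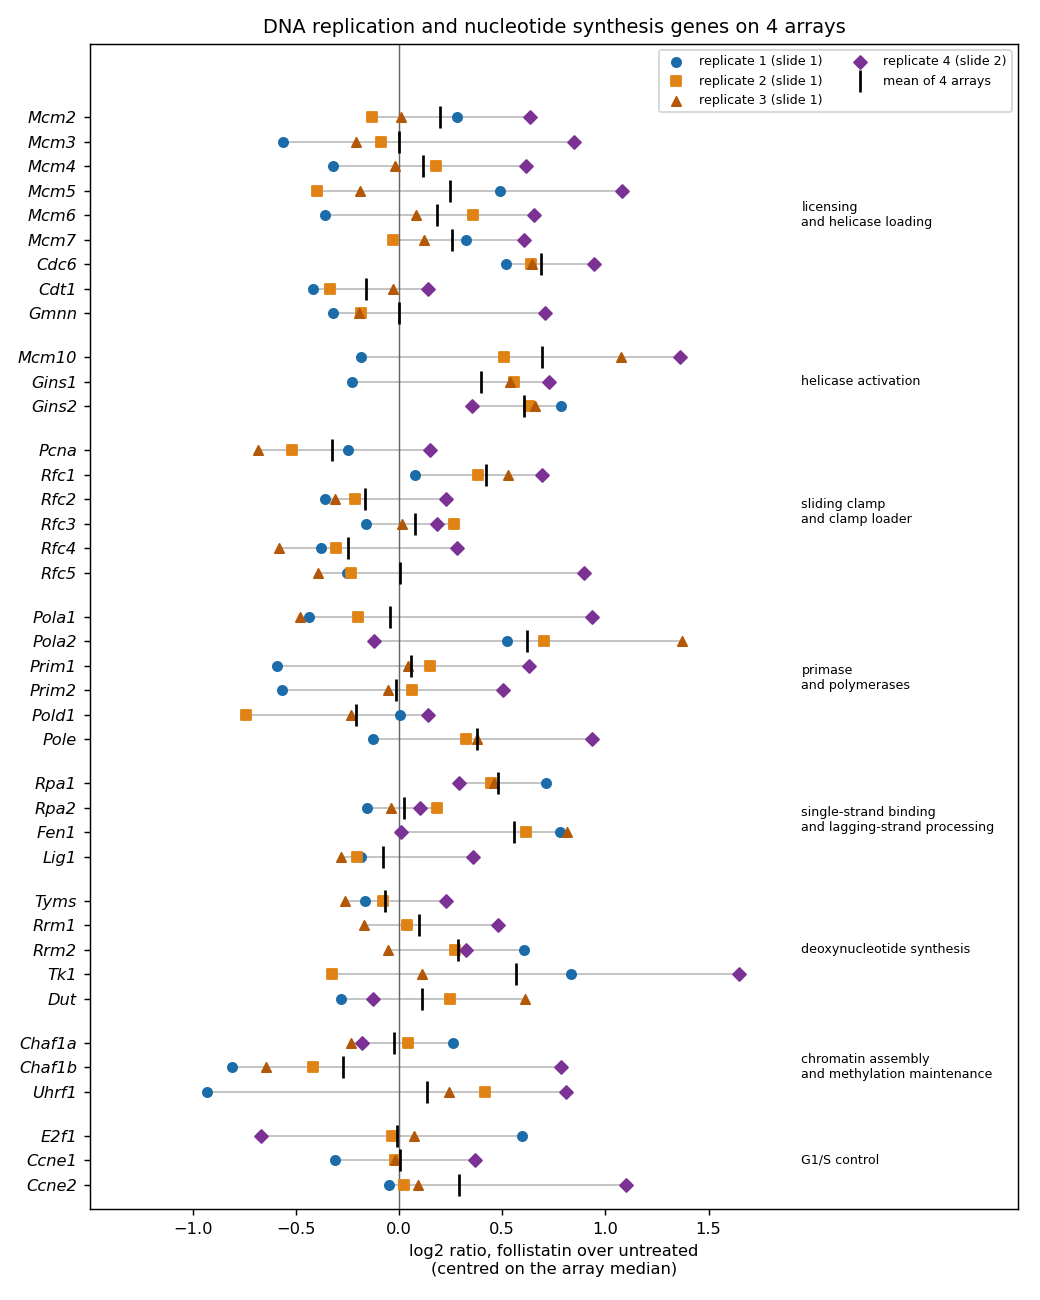
Log2 ratio of follistatin over untreated signal (horizontal axis, centred on the array median) of each replication gene on replicates 1 to 4, with the mean as a black tick and a grey line from the lowest to the highest array, grouped by role. Replicate 4 was the highest array for 29 of 39 genes, and 5 genes (Cdc6, Gins2, Rfc1, Rpa1, Fen1) lay above 0 on all 4 arrays.

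The 6 subunits of the replicative helicase ring, Mcm2 to Mcm7, each read from the brightest probe, had their highest ratio on replicate 4 and differed in which array was lowest. Mcm2 stood at 0.28, -0.13, 0.0077 and 0.64 on replicates 1 to 4. Mcm5 stood at 0.49, -0.40, -0.19 and 1.08, and Mcm7 at 0.33, -0.032, 0.12 and 0.61, so that these 3 subunits were lowest on replicate 2. Mcm4 stood at -0.32, 0.18, -0.018 and 0.62, and Mcm6 at -0.36, 0.36, 0.082 and 0.65. Mcm3 stood at -0.56, -0.087, -0.21 and 0.85, and like Mcm4 and Mcm6 it was lowest on replicate 1. A second Mcm3 probe, given below, was ordered the other way, with its lowest value on replicate 4. As a mean over arrays the ring subunits lay between -0.0023 (Mcm3) and 0.25 (Mcm5 and Mcm7), with standard errors of 0.17 to 0.27, and none passed the adjusted threshold.

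Among the factors that load the ring, Cdc6 and Cdt1 lay at opposite ends. Cdc6, the ATPase that recruits the ring to origins, had processed signals of 44, 80, 90 and 121 in the follistatin channel of replicates 1 to 4 and of 32, 52, 58 and 63 in the untreated channel. Follistatin was the brighter channel on every array, and centred log2 ratios were 0.52, 0.64, 0.64 and 0.94, a mean of 0.69 ± 0.16 (SE, n = 4, limma with Benjamini-Hochberg adjusted p = 0.109). Cdc6 was the dimmest of the 39 genes, well above background in the untreated channel on 3 of 4 arrays, and its mean was 0.20 when background and dye were corrected with normexp and loess. Cdt1, the partner that brings the ring to Cdc6, stood at -0.42, -0.34, -0.030 and 0.14, a mean of -0.16 ± 0.17. Gmnn, which encodes geminin, the inhibitor of Cdt1, stood at -0.32, -0.19, -0.20 and 0.70, so that 3 arrays lay below 0 and replicate 4 stood alone above.

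Upstream sequences of 4 licensing genes, Pola1 and Uhrf1 are shown because E2F binding sites are a known feature of promoters of the group and these genes had a match before the start. All 6 were highest on replicate 4. Rfc3, which also had a match wholly before the start and is not printed, was highest on replicate 2 (0.26, against 0.18 on replicate 4). RefSeq promoters (GRCm38.p6, 250 bases before to 50 after the annotated start) were given for 31 of the 39 genes, with 36 promoters in all. The E2F core was searched as TTTCCCGC, TTTGGCGC, TTTCGCGC and TTTGCCGC on both strands. It was found in 11 of the 36 promoters (30.6%), against 744 of 32851 promoters of all genes (2.26%). Of these 11 genes, 7 had a match wholly before the start, and 6 of those are printed here in the direction of transcription, with the match in capitals; a match that reads as the reverse complement lies on the opposite strand.
Mcm5, chr8:75109336-75109383, plus strand, match at -153: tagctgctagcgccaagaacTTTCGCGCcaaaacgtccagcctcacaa
Mcm6, chr1:128359788-128359835, minus strand, match at -110: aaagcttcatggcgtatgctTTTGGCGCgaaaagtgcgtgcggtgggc
Mcm7, chr5:138172021-138172068, minus strand, match at -165: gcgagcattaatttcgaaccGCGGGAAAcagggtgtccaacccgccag
Cdc6, chr11:98907993-98908040, plus strand, match at -138: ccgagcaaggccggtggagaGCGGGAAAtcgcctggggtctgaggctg
Pola1, chrX:93632266-93632313, minus strand, match at -138: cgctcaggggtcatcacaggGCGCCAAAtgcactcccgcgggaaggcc
Uhrf1, chr17:56304108-56304155, plus strand, match at -185: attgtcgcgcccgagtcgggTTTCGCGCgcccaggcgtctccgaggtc
In the Mcm5 and Mcm6 promoters the printed match overlapped a second match on the opposite strand.

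The 11 genes with the E2F core had medians of -0.19, -0.087, -0.030 and 0.65 on replicates 1 to 4, and the 20 genes with a promoter entry but no match had medians of -0.059, 0.041, -0.0067 and 0.31. Both sets were highest on replicate 4. A match is a description of letters in a window, and binding was not measured. The CHR core, TTTGAA, an element of promoters active in G2 and mitosis, was in 5.56% of the replication promoters, against 76.9% of the promoters of 37 mitosis genes and 17.9% of all promoters. The CCAAT box was in 52.8% of the replication promoters, 79.5% of the mitosis promoters and 37.4% of all. TTTGAA and CCAAT were searched on both strands, and none of the 3 motifs contains another.

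Helicase activation was the role group with the highest medians on replicates 2 and 3. Its 3 genes had medians of -0.18, 0.56, 0.66 and 0.72 on the 4 arrays. Mcm10, which helps to start the helicase, stood at -0.18, 0.51, 1.08 and 1.36, a mean of 0.69 ± 0.27 (SE, n = 4, limma with Benjamini-Hochberg adjusted p = 0.224). Replicate 1 was its only array below 0. Gins1 and Gins2 encode subunits of the same GINS complex, which joins the ring to form the active helicase. Gins1 stood at -0.23, 0.56, 0.54 and 0.72, a mean of 0.40 ± 0.21. Gins2 stood at 0.79, 0.63, 0.66 and 0.35, a mean of 0.61 ± 0.16 (limma with Benjamini-Hochberg adjusted p = 0.122), with all 4 arrays above 0 and its lowest value on replicate 4. After normexp and loess its mean was 0.36.

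The sliding clamp and its loader lay lower. Their 6 genes had medians of -0.25, -0.22, -0.35 and 0.25. Pcna, the clamp that holds polymerases on DNA, had the lowest mean of all 39 genes. Its processed follistatin signals were 12788, 10812, 10016 and 15202 on replicates 1 to 4, and its untreated signals 15813, 15738, 16252 and 13669. The centred log2 ratios were -0.25, -0.52, -0.68 and 0.15, a mean of -0.33 ± 0.19 (SE, n = 4, limma with Benjamini-Hochberg adjusted p = 0.365). Untreated cells were the brighter on the 3 arrays of slide 1 and follistatin-treated cells on the array of slide 2.

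The clamp loader genes did not move as a unit. Rfc1, the large subunit, was above 0 on every array, at 0.077, 0.38, 0.53 and 0.69, a mean of 0.42 ± 0.17 (limma with Benjamini-Hochberg adjusted p = 0.233). Of the small subunits, Rfc2, Rfc4 and Rfc5 were below 0 on replicates 1 to 3 and above it on replicate 4. Rfc4 had the lowest mean among them, -0.25 ± 0.19, with values of -0.38, -0.31, -0.58 and 0.28. Rfc2 stood at -0.36, -0.22, -0.31 and 0.23. Rfc5 stood at -0.25, -0.23, -0.39 and 0.89, so that its mean near 0 was the average of 3 negative arrays and 1 positive. Rfc3 stayed close to 0, between -0.16 and 0.26.

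The 1 spot of most probes cannot show how well an array measures a gene, but the Pcna probe was printed on many spots. Between 7 and 10 unflagged spots per array had an SD of 0.020 to 0.037 in log2 ratio, far less than the 0.36 between arrays. Repeated spots of 1 hybridisation measure the same RNA, so this spread covers spotting and scanning alone. The probe is shown because it is 1 of 2 in the group with such repeats and stands for the gene with the lowest mean; its target lies on mm9 chr2:132075420-132075557, minus strand, a span of 138 bases for a probe of 60.
Pcna: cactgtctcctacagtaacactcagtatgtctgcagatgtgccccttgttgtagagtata

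**Figure D3:**
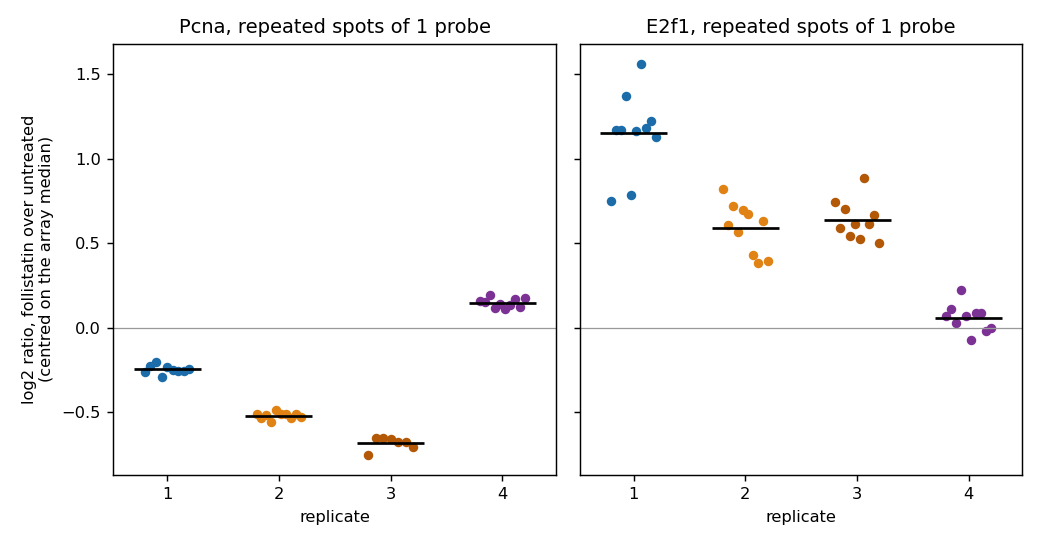
Log2 ratio of follistatin over untreated signal (vertical axis, centred on the array median) of each unflagged spot of the repeated Pcna and E2f1 probes on replicates 1 to 4, with the mean of the spots as a black line. Pcna spots of 1 array lay close together (SD of 0.020 to 0.037), and the arrays differed by more. E2f1 spots were more spread (SD of 0.082 to 0.24), and those of replicates 2 and 3 overlapped, with means of 0.59 and 0.64.

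Primase and the polymerases spanned a wide range. Their medians were -0.28, 0.11, -0.0057 and 0.57. Pola2, the regulatory subunit of polymerase alpha, had the highest mean, 0.62 ± 0.26 (SE, n = 4, limma with Benjamini-Hochberg adjusted p = 0.236), from values of 0.52, 0.70, 1.37 and -0.12, and it was lowest on replicate 4. Its mean was 0.30 after normexp and loess. Its partner Pola1, the catalytic subunit, was ordered the other way, at -0.44, -0.20, -0.48 and 0.93. Prim1 and Prim2, the primase subunits of the same complex, stood at -0.59, 0.15, 0.043 and 0.63 and at -0.57, 0.065, -0.054 and 0.50, both lowest on replicate 1 and highest on replicate 4.

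Of the polymerases that copy the leading and lagging strands, Pole, the catalytic subunit of polymerase epsilon, stood at -0.13, 0.33, 0.38 and 0.93, a mean of 0.38 ± 0.21 that was 0.22 after normexp and loess. Pold1, the catalytic subunit of polymerase delta, stood at 0.0044, -0.74, -0.24 and 0.14, a mean of -0.21 ± 0.20, the lowest of its role. A second Pold1 probe gave 0.20, -0.77, -0.14 and 0.067. Both Pold1 probes placed replicate 2 far below the other arrays, which is the reason for showing their sequences; neither overlaps the other on mm9 chromosome 7 (51788221-51788589 and 51788621-51788751, minus strand).
Pold1, brighter probe: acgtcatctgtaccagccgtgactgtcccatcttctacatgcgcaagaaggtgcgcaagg
Pold1, second probe: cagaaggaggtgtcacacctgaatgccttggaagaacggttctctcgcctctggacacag

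Single-strand binding and lagging-strand processing was the role group with the steadiest medians, at 0.28, 0.31, 0.21 and 0.20. Rpa1, the large subunit of the protein that coats single-stranded DNA, had follistatin signals of 5829, 6042, 6154 and 6098 and untreated signals of 3709, 4502, 4517 and 4970 on the 4 arrays. Its log2 ratios were 0.71, 0.45, 0.46 and 0.29, a mean of 0.48 ± 0.16 (SE, n = 4, limma with Benjamini-Hochberg adjusted p = 0.171). Follistatin was the brighter channel on every array, and Rpa1 was a bright gene whose mean was 0.47 after normexp and loess. Rpa2, the middle subunit of the same complex, stayed between -0.16 and 0.18. Fen1, the flap endonuclease that trims Okazaki fragments, stood at 0.78, 0.62, 0.81 and 0.0094, a mean of 0.55 ± 0.19 (adjusted p = 0.184), high on the arrays of slide 1 and near 0 on replicate 4. Lig1, the ligase that seals the fragments, was ordered the other way, at -0.19, -0.20, -0.28 and 0.36.

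Genes of deoxynucleotide supply had medians of 0.037, 0.037, -0.052 and 0.32. Tk1, the thymidine kinase of the salvage pathway, had the widest range of the 39 genes. On replicates 1 to 4 its follistatin signals were 496, 364, 538 and 1389, and its untreated signals 290, 464, 504 and 442. The follistatin channel was thus 1.78, 0.798, 1.08 and 3.13 times the untreated channel after centring, a mean log2 ratio of 0.57 ± 0.33 (SE, n = 4, limma with Benjamini-Hochberg adjusted p = 0.358). Rrm1 and Rrm2 encode the large and small subunits of ribonucleotide reductase. Rrm1 stood at 0.037, 0.037, -0.17 and 0.48, and Rrm2 at 0.60, 0.27, -0.052 and 0.32, both lowest on replicate 3. Dut, which removes dUTP, was highest on replicate 3, at -0.28, 0.24, 0.61 and -0.12.

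Tyms, the enzyme that makes thymidylate, had the lowest mean of the supply genes, -0.070 ± 0.16, from values of -0.17, -0.079, -0.26 and 0.23. It is the only member with 3 tested probes, whose means were -0.23, -0.070 and 0.097. Of these probes 2 share a run of 23 bases, in capitals below, and so do not measure the transcript independently. The lower-case bases of the brightest probe before this run also match the second probe, apart from the base next to the run. The probe listed second was the higher of the pair on every array, at -0.041, 0.066, -0.049 and 0.41.
Tyms, brightest probe: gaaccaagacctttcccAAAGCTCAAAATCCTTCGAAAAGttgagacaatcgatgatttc
Tyms, second probe: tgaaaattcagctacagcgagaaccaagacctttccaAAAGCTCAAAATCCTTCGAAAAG

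Chromatin genes differed most between arrays, with medians of -0.81, 0.045, -0.23 and 0.78. Chaf1a and Chaf1b are subunits of the factor that deposits histones behind the fork, and Uhrf1 guides methylation of newly made DNA. Chaf1b stood at -0.81, -0.42, -0.65 and 0.78, a mean of -0.27 ± 0.29 (SE, n = 4, limma with Benjamini-Hochberg adjusted p = 0.603). Uhrf1 stood at -0.93, 0.42, 0.24 and 0.81, a mean of 0.13 ± 0.29, with the lowest single value among the members' brightest probes. Its second tested probe stood at -1.30, -0.090, -0.15 and 0.59, a mean of -0.24. Chaf1a did not share this pattern, at 0.26, 0.045, -0.23 and -0.18.

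The 3 regulators of S phase entry had medians of -0.048, -0.020, 0.074 and 0.37. Ccne2, a cyclin E that activates Cdk2 before S phase, stood at -0.048, 0.025, 0.090 and 1.10, a mean of 0.29 ± 0.24 (SE, n = 4, limma with Benjamini-Hochberg adjusted p = 0.499). Its 4 untreated signals lay between 60 and 68, and only the follistatin signal of replicate 4, 129, stood apart. After normexp and loess its mean was 0.11, and its value on replicate 4 was 0.33. Ccne1 stood at -0.31, -0.020, -0.021 and 0.37. E2f1, the transcription factor that drives many genes of this group, was ordered the other way on its brightest probe, at 0.59, -0.037, 0.074 and -0.67, a mean of -0.0095 ± 0.23.

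Genes with several probes showed how far a value rests on the probe. Of the 58 probes, 53 were tested; the other 5, second probes of Chaf1b, Mcm4, Pola2, Pole and Rrm1, did not rise well above background in Cy3 or Cy5 on any of the 4 arrays, and all 5 were assigned to no RefSeq transcript. In 6 of the 13 genes with more than 1 tested probe (Mcm3, Rpa2, Tyms, Dut, Uhrf1, E2f1) the probes' means had opposite signs. The difference was largest in E2f1 and Mcm3. A dimmer E2f1 probe on 10 spots stood at 1.15, 0.59, 0.64 and 0.058, a mean of 0.61. The dimmer Mcm3 probe stood at 0.86, 0.77, 0.79 and 0.35, a mean of 0.69, against -0.0023 for the brightest. Of the tested probes 6 were assigned to no RefSeq transcript, among them those that stand for Mcm3, Rpa1, Rpa2 and Rrm2; Rpa1 and Rrm2 had no other probe. The dimmer Mcm3 probe was on a RefSeq transcript, with a target at mm9 chr1:20795363-20795879, minus strand, so its sequence is shown.
Mcm3, probe on a RefSeq transcript: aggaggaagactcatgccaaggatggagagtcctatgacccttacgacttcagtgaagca
In the other genes the probes' means had the same sign, but single arrays could differ. The second Ccne1 probe stood at 0.27, 0.34, 0.46 and -0.020, opposite in sign to the brightest on all 4 arrays. Probes of Gins1, Rfc2, Pola2 and Ccne2 differed in sign on at least 1 array. On replicate 3 the Pola2 probes stood at 1.37 and -0.14. The Cdc6 probes had means of 0.69 and 0.54 and both were above 0 on all 4 arrays, and the Gins1 probes had means of 0.40 and 0.39. The second tested Pola2 probe had a mean of 0.062 against 0.62.

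**Figure D4:**
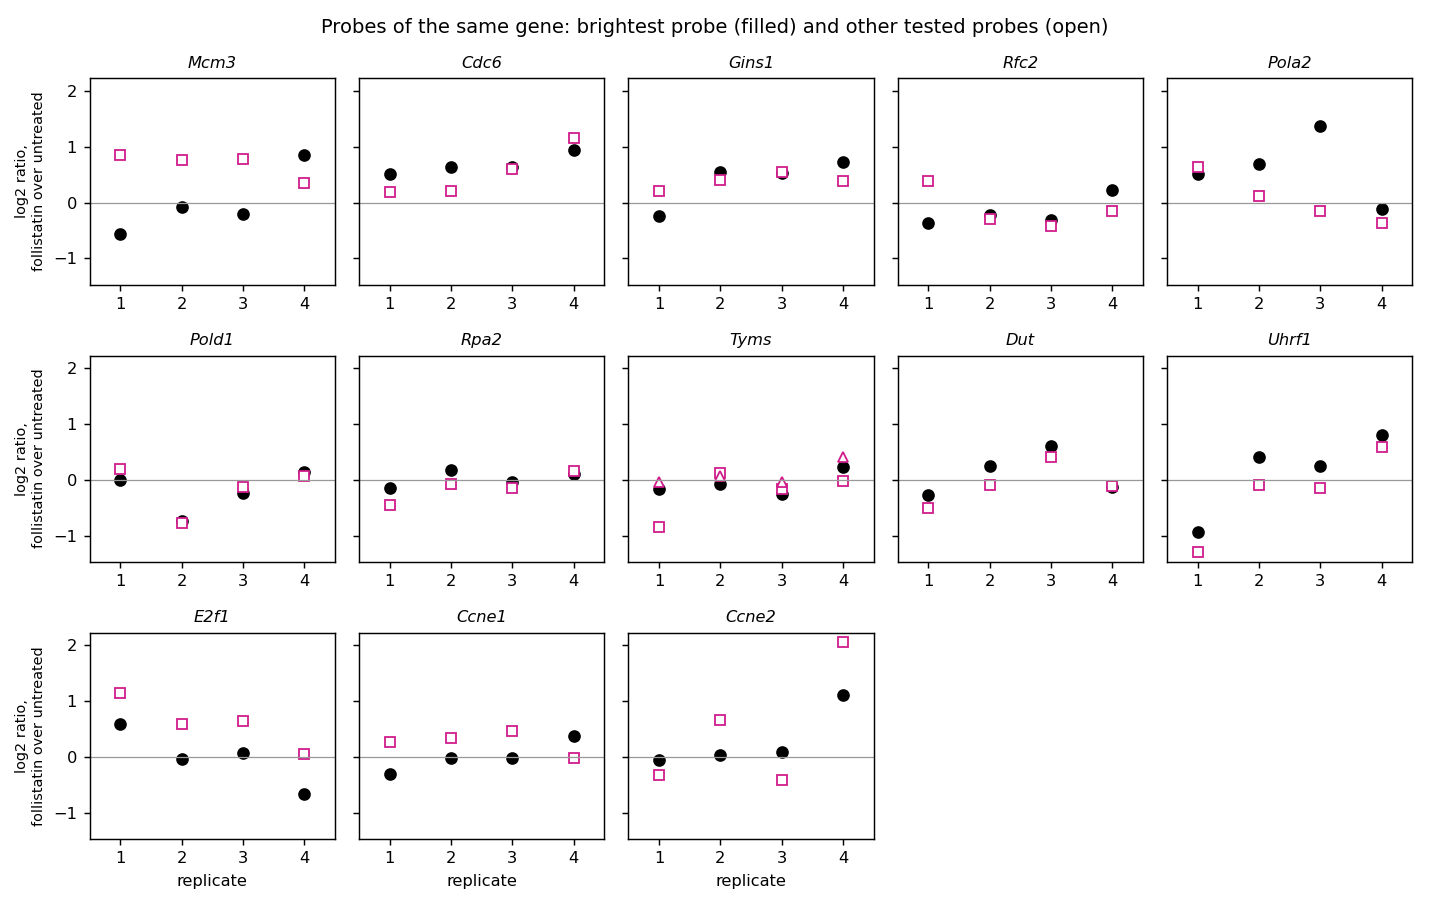
Log2 ratio of follistatin over untreated signal (vertical axis, centred on the array median) on replicates 1 to 4 for the 13 replication genes with more than 1 tested probe, with the brightest probe filled and the others open. Both Cdc6 probes lay above 0 on all 4 arrays, while the Mcm3 probes had means of -0.0023 and 0.69 and the E2f1 probes means of -0.0095 and 0.61.

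The other genes of the pathway, which were not among the 39, gave a reference for the group. Of 62 further replication and S phase genes 61 were tested, and 0 passed the adjusted threshold in either direction (against 0.0112% of all features). At an unadjusted limma p under 0.05, 15 of the 61 were higher (against 10.3% of all features) and 2 lower (against 10.7%). Their medians were -0.11, 0.22, 0.38 and 0.32 on replicates 1 to 4, so this list lay above 0 on 3 arrays, and 43 of its means were positive and 18 negative. The highest means were those of Dna2, a nuclease and helicase of lagging-strand processing (0.94 ± 0.34), and Rpa3, the small subunit of the single-strand binding protein (0.93 ± 0.19). Pold2, the accessory subunit of polymerase delta (-0.73 ± 0.30), and E2f2 (-0.44 ± 0.17) had the lowest. Ccnd1, the D-type cyclin of G1, stood at 0.34, 0.61, 0.73 and 0.20, a mean of 0.47 ± 0.17.

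Of 44 mitosis genes 0 passed the adjusted threshold (against 0.0112% of all features), and the medians by array were -0.022, 0.38, 0.40 and 0.54. At an unadjusted limma p under 0.05, 19 were higher (against 10.3% of all features) and 1 lower (against 10.7%). Top2a, the topoisomerase that untangles replicated DNA, stood at 1.05, 0.93, 0.76 and 0.82, a mean of 0.89 ± 0.15 (limma with Benjamini-Hochberg adjusted p = 0.0867). Ckap2 and Anln, which act in spindle assembly and cytokinesis, had the highest means, both 1.07, and Cdc20 (-0.48) and Cdca3 (-0.37) the lowest. Replication and mitosis genes thus had like medians on replicate 4 (0.50 and 0.54), and on replicates 2 and 3 the mitosis list lay 0.38 and 0.40 above 0 while the replication list lay near 0. That difference between the lists was not tested.

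Genes of cell cycle exit, 15 of 17 tested, had medians of -0.086, 0.064, 0.14 and -0.037. Among them 0 passed the adjusted threshold (against 0.0112% of all features). Rbl1, the pocket protein p107, had the highest mean (0.78 ± 0.20) and Gas1 followed (0.36), while the CDK inhibitor Cdkn1c (-0.67) and the antiproliferative factor Btg1 (-0.65) had the lowest. Cdkn1a, the inhibitor p21 that rises in differentiating myoblasts, stood at 0.95, -0.53, -0.67 and 0.73, with replicates 1 and 4 above 0 and replicates 2 and 3 below.

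Markers of the cells in the culture also differed between arrays. All 26 markers of differentiated muscle were well above background, with medians of 0.43, -0.33, -0.48 and -0.26. Their summed signal was 2557090 to 3659390 with follistatin and 3896180 to 4637590 without. Before centring, the summed follistatin signal was 0.94, 0.74, 0.60 and 0.82 times the untreated on replicates 1 to 4. On replicate 1, where the centred median was positive, the sum before centring was thus slightly lower with follistatin. The median log2 ratio of all features on that array was itself -0.060 before centring, and the sums are not adjusted for it. Myog stood at -0.059, -0.37, -0.37 and -0.46, Myh3 at 0.41, -0.76, -1.16 and -0.60, and Ckm at 1.11, -0.85, -1.20 and -0.82. Of the 26 markers 10 had positive means and 16 negative. Casq2, the calsequestrin of the calcium store, was above 0 on all 4 arrays, at 1.25, 0.56, 0.17 and 0.17, and Atp2a1, the calcium pump, stood at 1.71, -0.27, -0.20 and 0.89. The lowest means were those of the giant sarcomere proteins Neb (-1.60 ± 0.54) and Ttn (-0.94 ± 0.28), both below 0 on every array. As a median, muscle markers were highest on replicate 1, where 20 of the 39 replication genes were lowest, and lay below 0 on replicates 2, 3 and 4, where the replication genes differed. The part of cell composition in the replication genes' values was not tested.

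Of 13 markers of myoblasts and reserve cells 12 were detected (Pax3 was not well above background), with medians of 0.36, -0.20, -0.15 and -0.078. Itga7 (0.48) and Myf5 (0.42) had the highest means, and Id1 (-0.74) and Pax7 (-0.30) the lowest. Of 8 fibroblast markers 5 were detected, with medians of 0.60, 0.33, 0.082 and 1.19. Their summed signal was 121552 to 189637 in the follistatin and 94835 to 144260 in the untreated channel. Before centring, the summed follistatin signal was 1.56, 1.06, 0.90 and 2.00 times the untreated on replicates 1 to 4. Tcf21, Thy1 and Col15a1 were not well above background on any array. Dpt, a matrix protein of fibroblasts, stood at 1.46, 1.51, 1.59 and 1.62, a mean of 1.54 ± 0.15 (limma with Benjamini-Hochberg adjusted p = 0.0613); Lum (0.50) followed, and Ly6a (0.25) and Pdgfra (0.39) were lowest. Replicate 4 was the highest array for this list as for the replication genes, and its part in their values was not tested. Of 18 markers of epithelial, endothelial, blood and neural cells 11 were detected, with a summed signal of 3744 to 5849 in a channel. Cd68 (0.28) and Hba-a1 (-0.028) had the highest means there, Gfap (-0.47) and Krt14 (-0.44) the lowest, and Epcam, Pecam1, Cdh5, Kdr, Ptprc, Emr1 and Syp were not well above background on any array.

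**Figure D5:**
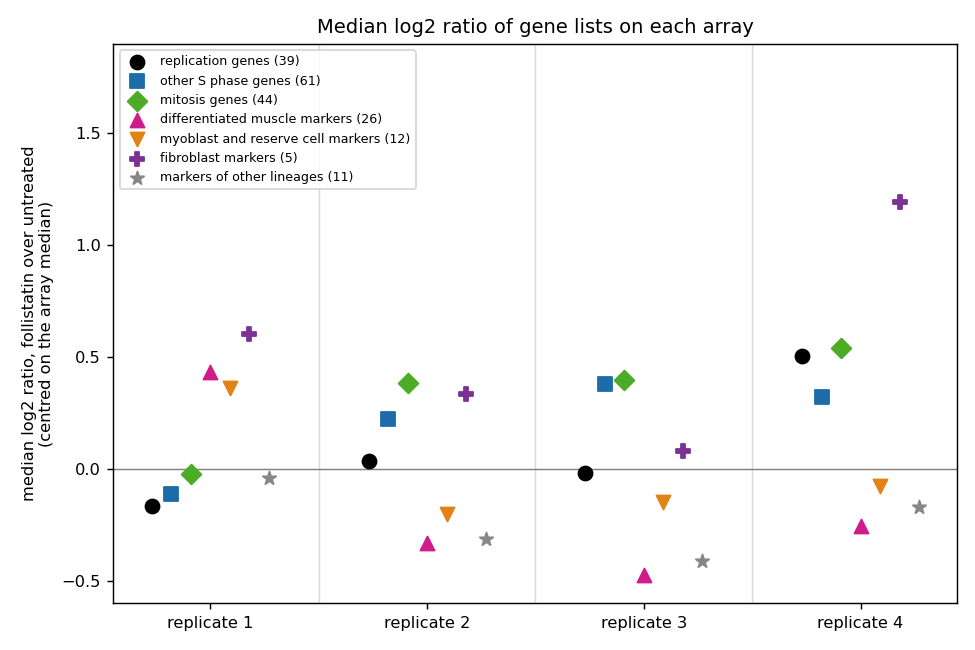
Median log2 ratio of follistatin over untreated signal (vertical axis, centred on the array median) of each gene list on replicates 1 to 4, with the number of genes tested in brackets. The replication genes had medians of -0.17, 0.037, -0.018 and 0.50, the mitosis genes -0.022, 0.38, 0.40 and 0.54, and the muscle markers 0.43, -0.33, -0.48 and -0.26.

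The order of the arrays was also read after taking brightness into account. The genes' median log2 signal was 10.3, against 9.67 for other features. When each gene was set against features of the same brightness, the medians were -0.19, 0.0074, -0.061 and 0.49, with 14, 20, 16 and 34 of the 39 genes above their band. With normexp and loess in place of the processed signals the medians were -0.16, 0.036, -0.036 and 0.34, and 12, 20, 17 and 35 genes were above 0. Replicate 4 stood apart under each of these, with a smaller median under loess.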

How the data were processed

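RNA of follistatin-treated (Cy3) and untreated (Cy5) C2C12 cells was hybridised on 4 Agilent arrays. The intensity values deposited by the authors are processed signals of Agilent Feature Extraction, from which that software had subtracted background and balanced the dyes, with version 10.7.3.1 for replicates 1 to 3 and 10.10.1.1 for replicate 4 per the file headers. The log10 ratios the authors deposited settled the direction, and their deposited log2 table matched the processed ratios (r = 1, slope 1). The labels call every array a dye swap with the treated sample in Cy3.

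Log2 ratios were centred on each array's median. A probe was kept where 1 channel was well above background on 3 or more of the 4 arrays, and the brightest probe stood for a gene. limma 3.58.1 in R 4.3.3 (lmFit, eBayes) tested mean ratios against 0, with Benjamini-Hochberg adjustment over 17847 features. Alternatives changed the background and dye correction (normexp, offset 50, with loess), centring, filter, probe rule, arrays, weights, block and test. The 39 genes and all lists were chosen with earlier results of these data known. Named genes are, in each role, the highest and lowest mean and those of 1 sign on all arrays; in other lists, the 2 highest and 2 lowest means and 6 genes set by name (Myog, Ckm, Myh3, Cdkn1a, Ccnd1, Top2a); further members are given to account for all 39. Positions of probes are on mm9 per the file headers. Standard errors are those of limma, in which each feature's variance over the 4 arrays is drawn towards a value shared by all features. limma p-values rest on the same variance, so neither measures the spread of a single gene between arrays alone.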

Additional observations from a re-analysis of the deposited data

Results flagged for a closer look

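In 4 genes 1 array stood apart from the other 3 by more than Dixon's 95% critical value for 4 samples, and in all 4 it was replicate 4, on the high side. Gmnn stood at 0.70 on that array, with the other 3 between -0.32 and -0.19. Rfc5 stood at 0.89, with the others between -0.39 and -0.23. Lig1 stood at 0.36, with the others between -0.28 and -0.19. Ccne2 stood at 1.10, with the others between -0.048 and 0.090. Of 40 sets of values examined (39 genes and the group's shift) 4 passed (10%). Chance passes about 1 in 20, and among all features 6.04% passed.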

How the results depend on the processing

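The shift of the 39 genes against other features was 0.089 and stayed within 1 SD (0.29) under every alternative run: 0.044 with normexp and loess, 0.026 without the filter on dim probes, 0.073 with the strict filter, 0.11 with the mean of a gene's probes, 0.035 over single probes, 0.12 with replicates 2 and 3 averaged, 0.17 with replicates 1 and 4 alone and 0.040 with array weights. Leaving out 1 array gave -0.049 (without replicate 4) to 0.17 (without replicate 1), so replicate 4 sets its sign. The number of features called, 2, was 0 with normexp and loess, with the strict filter and with replicates 2 and 3 averaged, 4 with replicates 1 and 4 alone, 1 with the methods' t-test after adjustment with the 1.6-fold threshold, and 0 to 6 when 1 array was left out. With array weights of 0.495, 2.31, 1.87 and 0.467 for replicates 1 to 4, 4127 features (23.1%) and 6 replication genes were called, all 6 higher: Cdc6, Fen1, Gins2, Mcm10, Pola2 and Rpa1. Those weights rest mostly on replicates 2 and 3, the pair that correlated at 0.81. Under every other alternative run 0 replication genes were called. The sign of the mean held in all 14 alternatives for 21 of the 39 genes and turned in at least 1 for 18. The slide as a random block (correlation 0.0917) left 2 features called. The main test was paired by array, since each of its values is a ratio of treated over untreated on 1 array. Only the methods' t-test took the channels as unpaired. With 4 arrays in 1 dye orientation, dye and treatment cannot be told apart. With 1 array on slide 2, slide, extraction software version and replicate 4 cannot be told apart either.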
